A study of Homo sapiens with 6 samples.

Results

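The 57 genes described here lie on the long arm of chromosome 16 (16q), between about 47 and 90 Mb of the GRCh38 build, and were chosen by their read counts in knockout and control libraries, as genes of 1 arm whose levels shared an upward shift in RNASEH2A knockout cells. They are 57 of the 25330 gene symbols counted and of the 14199 that passed the filter on low counts. All 57 passed that filter. The comparison of knockout with control libraries chose them, so their sizes of shift are given as a description, with no test.

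The study profiled MDA-MB-231, an established line of human breast cancer cells that is triple-negative, in 2 groups of 3 libraries. The first group is labelled RNASEH2A KO (libraries RN1), and the second is the control of the same line (libraries CTRV2), grown in the same serum-containing medium with no treatment. RNASEH2A encodes the subunit that gives RNase H2 its activity of cutting RNA paired with DNA, including single ribonucleotides built into the genome. Strand-specific poly-A libraries came from different passages of each group, so the spread between replicates is a spread between passages, and the sources used here do not say whether the knockout is 1 clone or a pool.

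Genes that share a chromosome arm need not share a pathway. The 16q arm carries genes for chromatin regulators, RNA helicases, Golgi tethers, ubiquitin enzymes and tRNA synthetases next to each other. It is known in breast cancer as an arm that is often lost in luminal and lobular tumours, and it holds the genes for E-cadherin, CTCF and CYLD. DNA copy number was not analysed here.

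Libraries held 27928670 to 31596286 counts in the knockout group and 25419877 to 29635083 in the control group. RNASEH2A itself had 7, 8 and 16 counts in the knockout libraries and 10, 6 and 15 in the control libraries, so the labels of genotype cannot be checked by it. Summed markers of mesenchymal MDA-MB-231 cells (VIM, CD44, AXL, CAV1 and MSN) reached 5488 to 5770 CPM (read counts scaled to a common library total, with TMM factors) in knockout libraries and 5764 to 6165 CPM in control libraries. The 7 luminal markers summed to 858 to 905 CPM in knockout and 907 to 948 CPM in control libraries, mostly KRT8, with ESR1 at 0 counts in all 6, which allows up to 0.0949 to 0.118 CPM and covers counting error only. Summed markers stayed low for leukocytes (3 of 5 markers in the table, 2.48 to 4.05 CPM in knockout and 3.98 to 4.91 CPM in control libraries), endothelium (3 of 3, 0.311 to 0.713 and 0.635 to 0.701 CPM) and neural cells (2 of 3, 1.29 to 1.84 and 0.872 to 1.18 CPM). The part of these markers in the 16q levels was not tested. The libraries numbered 1 stood apart from the others of their group: chi-square per degree of freedom over genes was 34.2 and 22.2 for knockout 1 against the other knockouts, where those gave 6.61 between them, and 11.4 and 10.2 for control 1 against the other controls, where those gave 2.45.

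Most of the 57 genes stood slightly higher in the knockout libraries, by factors that differed between genes. The median log2 fold change, knockout over control, was 0.26, a 1.2-fold higher level, with quartiles of 0.17 and 0.38. The median over all 14199 tested genes was 0.00, with quartiles of -0.16 and 0.18. Values ran over the members from -0.15 for DNAJA2 to 0.82 for CMIP, and 55 of 57 were above 0. In bulk RNA, more cells with a high level and a higher level in every cell cannot be told apart.

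By edgeR's quasi-likelihood test, adjusted over all tested genes, 18 of the 57 were called higher at an adjusted p under 0.05 and 0 were called lower, where 5.88% of all tested genes were called higher and 6.22% lower. In 37 of the 57 every knockout library lay above every control library, a pattern held by 16.1% of all tested genes. In DNAJA2 alone every knockout library lay below every control library (17.4% of all tested genes). The rule used this same contrast, so nothing is read from these shares. The number called moved with single libraries: it was 8 without control 2, 7 without control 3, 35 without knockout 1 and 6 without knockout 3. Over all tested genes, the same settings called 649, 550, 3430 and 524 in either direction, beside 1718 with all libraries. Without both libraries numbered 1, an alternative chosen after seeing the data, 40 members were called higher, among 4312 genes called in either direction over all genes, and the median of the members was 0.28.

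The shift was present in each knockout library, and smallest in the first. Relative to the mean of the 3 controls, the median member stood at 0.17 on the log2 scale in knockout 1, 0.32 in knockout 2 and 0.30 in knockout 3 (1.13-fold, 1.25-fold and 1.23-fold). Each control, set against the other controls, had a median between -0.01 and 0.00. Members above 0 numbered 47 in knockout 1, 55 in knockout 2 and 54 in knockout 3. Knockout 1 was the lowest of the 3 knockout libraries in 36 members, knockout 2 in 12 and knockout 3 in 9.

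**Figure D1:**
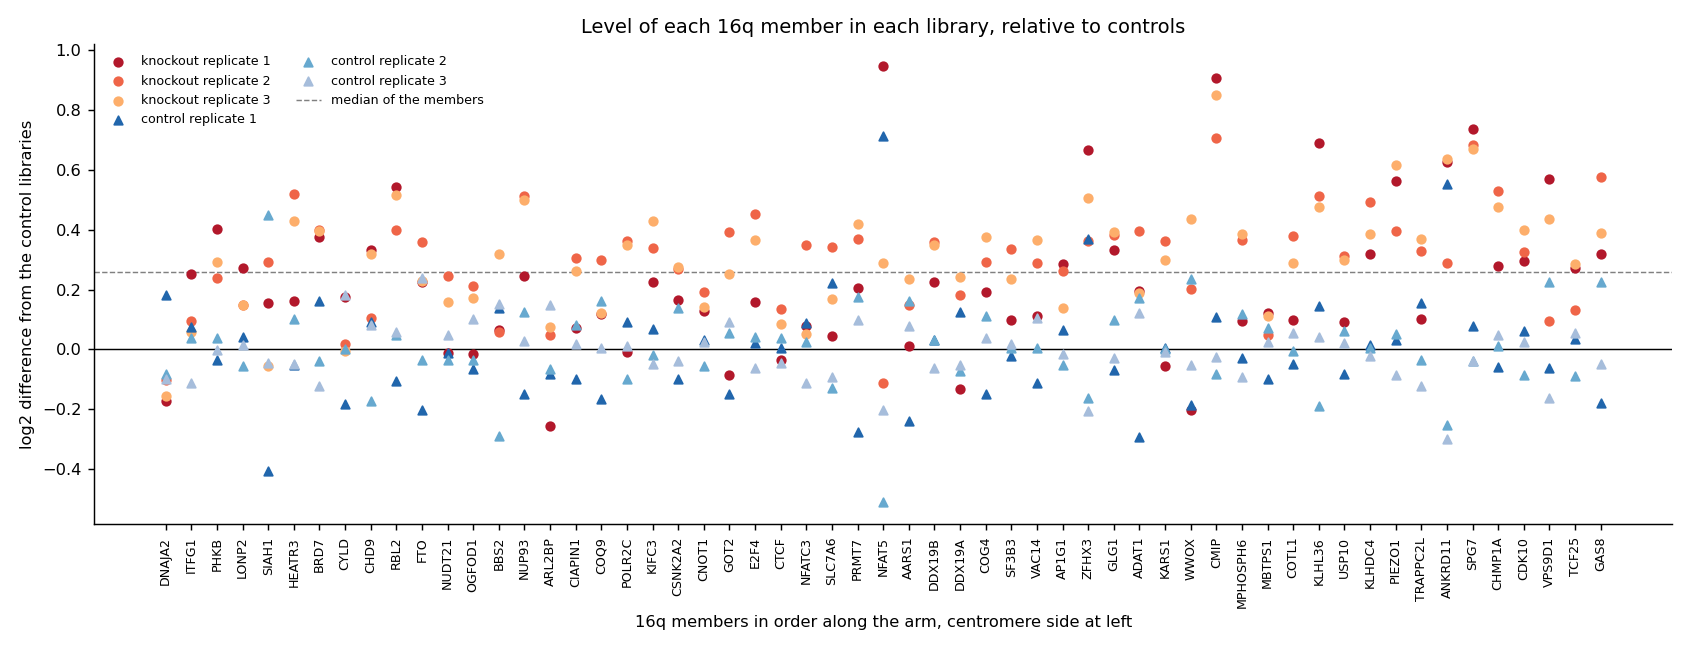
Level of each of the 57 genes in each library as a log2 difference from the control mean (a control is set against the other controls), in order along the arm, with knockout libraries as circles and control libraries as triangles. Most circles sit near the dashed line at the members' median of 0.26, with CMIP at 0.82 as the highest and DNAJA2 below 0 at the centromere side.

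Uniformity was judged against each gene's own standard error, whose median was 0.08 and which ran from 0.06 for CNOT1 to 0.27 for NFAT5. Of the 57, 46 lay within 2 standard errors of the median of 0.26. On a fixed scale, 28 of the 57 lay within 0.1 of that median and 48 within 0.2. The 7 that lay more than 2 standard errors above it were CMIP, SPG7, KLHL36, PIEZO1, ZFHX3, RBL2 and CHMP1A. The 4 more than 2 standard errors below it were DNAJA2, CYLD, CTCF and MBTPS1. In size, 6 members stood at 0.5 or more, 16 between 0.3 and 0.5, 30 between 0.1 and 0.3, 3 between 0 and 0.1, and 2 under 0.

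Across the members, the log2 fold change had a correlation of r = 0.17 (Spearman's rho 0.08) with mean level and of r = 0.38 (rho 0.25) with exonic length, over 57 genes that share their libraries. The shifts of knockout 2 and knockout 3 correlated at r = 0.65 and those of knockout 1 and knockout 3 at r = 0.63, against r = 0.31 for knockout 1 and knockout 2. These pairs share the same control mean. The amount by which knockout 1 differed from the other knockouts correlated with exonic length at r = 0.56 (rho 0.62). The first control, set against the other controls, had r = 0.37 (rho 0.31) with length, so long members stood relatively high in both libraries numbered 1. The part of length in the shift was not tested.

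The genes that stood highest came from different pathways. CMIP (chr16:81445170-81711762, plus strand, GENCODE 29 on GRCh38) encodes an adaptor protein of receptor signalling. It had 282, 246 and 271 CPM in knockout libraries and 158, 145 and 149 CPM in control libraries, a log2 fold change of 0.82 ± 0.07 (SE, n = 3 each). Every knockout library stood well above every control library. SPG7 (chr16:89490719-89557768, plus strand) encodes paraplegin, a subunit of the m-AAA protease of the inner mitochondrial membrane. Its levels were 66.4, 64.0 and 63.5 CPM in knockout libraries and 41.2, 39.0 and 39.0 CPM in control libraries (0.70 ± 0.07). The groups did not overlap, and the spread within each was small.

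KLHL36 (chr16:84648525-84667686, plus strand) is a kelch protein of the family that brings substrates to cullin-3 ubiquitin ligases. It reached 75.6, 66.7 and 65.2 CPM in knockout libraries, against 49.95, 42.7 and 47.6 CPM in control libraries, a log2 fold change of 0.57 ± 0.09. PIEZO1 (chr16:88715338-88785220, minus strand) forms a cation channel opened by membrane stretch. It had 291, 258 and 301 CPM in knockout libraries and 199, 201 and 189 CPM in control libraries (0.53 ± 0.07). In both genes the lowest knockout library lay above the highest control.

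ZFHX3 (chr16:72782885-73891871, minus strand) and ANKRD11 (chr16:89267619-89490561, minus strand), a homeodomain transcription factor and a chromatin regulator that binds histone deacetylases, were next in size. ZFHX3 was measured at 46.9, 37.9 and 41.9 CPM in knockout libraries and 34.9, 27.2 and 26.6 CPM in control libraries, at 0.51 ± 0.12. Its groups stayed apart, but control 1 came close to knockout 2. ANKRD11 gave 236, 187 and 238 CPM in knockout libraries and 198, 136 and 133 CPM in control libraries (0.50 ± 0.15). Here the groups overlapped, since control 1 exceeded knockout 2.

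**Figure D2:**
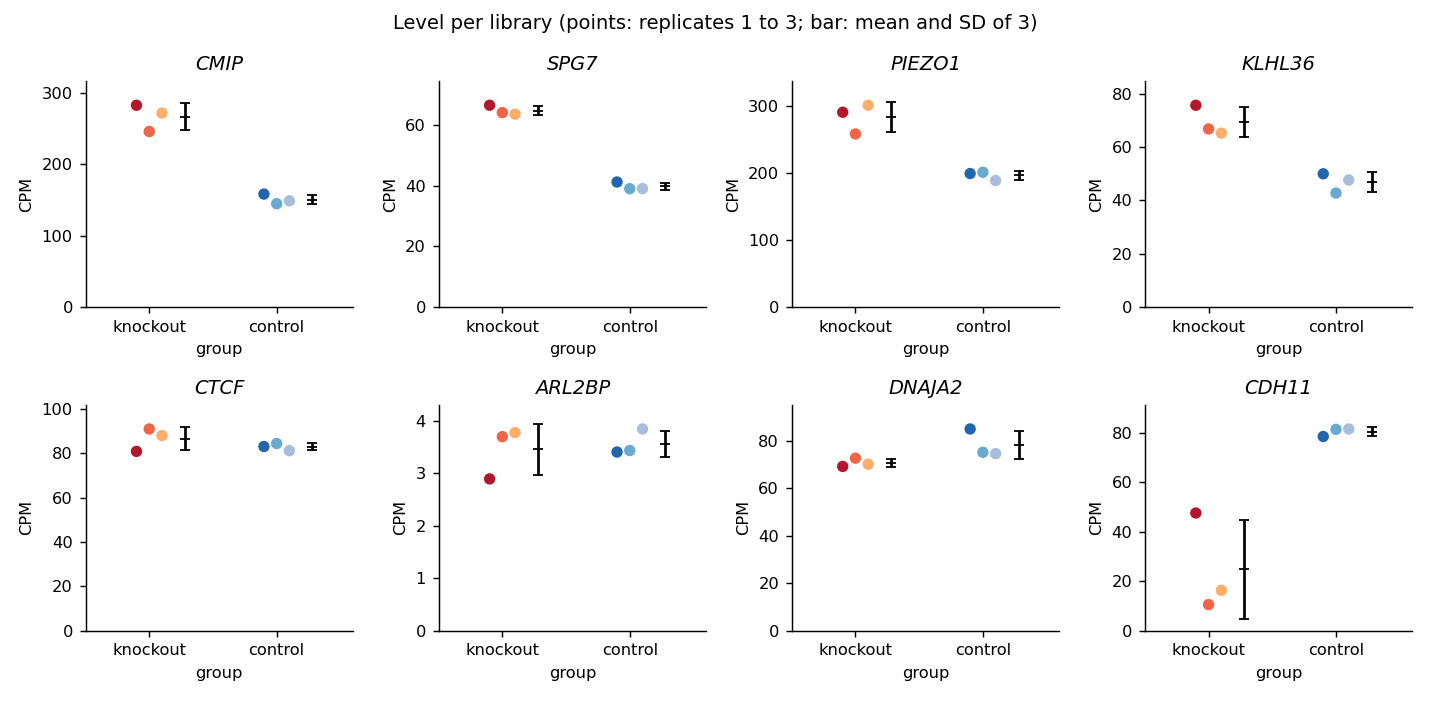
Level in CPM on axes that start at 0 for 7 members and for CDH11, a 16q gene outside the list, with knockout libraries at left and control libraries at right (points are replicates 1 to 3, bars are the mean and SD of 3). CMIP, SPG7, PIEZO1 and KLHL36 are higher and apart between the groups, CTCF and ARL2BP overlap, and DNAJA2 and CDH11 are lower in the knockout libraries.

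By role, the 13 members that act in transcription and chromatin had a median log2 fold change of 0.33 (range 0.06 to 0.51), and 5 were called higher: RBL2, BRD7, CDK10, ZFHX3 and E2F4. RBL2 encodes p130, a pocket protein that represses cell cycle genes together with E2F4. RBL2 (chr16:53433977-53491649, plus strand) had 37.8, 34.3 and 37.2 CPM in knockout libraries and 24.6, 26.5 and 26.5 CPM in control libraries (0.50 ± 0.08). E2F4 (chr16:67192169-67198918, plus strand) had 85.6, 105 and 98.9 CPM in knockout libraries and 77.4, 78.1 and 74.4 CPM in control libraries (0.33 ± 0.08). Both genes were apart between groups.

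BRD7 (chr16:50313487-50368934, minus strand) is a bromodomain subunit of the PBAF chromatin remodeller. It measured 71.3, 72.6 and 72.4 CPM in knockout libraries, against 59.2, 53.9 and 51.9 CPM in control libraries (0.39 ± 0.07). The knockout libraries were nearly equal, and 42.4% of its exonic bases overlap exons of the opposite strand. CDK10 (chr16:89680737-89696364, plus strand) is the kinase partner of cyclin Q. It gave 32.9, 33.6 and 35.4 CPM in knockout and 27.5, 25.6 and 27.0 CPM in control libraries (0.35 ± 0.08), again with no overlap. NFAT5, the tonicity-responsive factor, had 96.3, 45.9 and 60.8 CPM in knockout libraries and 69.3, 39.1 and 45.2 CPM in control libraries (0.40 ± 0.27). Both of its libraries numbered 1 were the highest of their group, and the groups overlapped.

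CTCF (chr16:67562407-67639185, plus strand), the zinc finger protein that anchors chromatin loops with cohesin, was at the low end of this class. It had 80.9, 91.0 and 88.0 CPM in knockout libraries and 83.1, 84.4 and 81.2 CPM in control libraries, a log2 fold change of 0.06 ± 0.07. Knockout 1 was just under the lowest control, while the other knockouts were above the highest.

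The 12 genes of RNA processing, export and translation had a median of 0.22 and a narrow range of 0.11 to 0.42, and 1 of them, NUP93, was called higher. NUP93 (chr16:56730105-56850286, plus strand) is a scaffold nucleoporin of the inner ring of the nuclear pore. It reached 96.5, 116 and 115 CPM in knockout libraries, against 75.8, 86.1 and 82.3 CPM in control libraries (0.42 ± 0.09). SF3B3 (chr16:70523788-70577670, plus strand), a subunit of the splicing factor SF3b, had 376, 444 and 413 CPM in knockout and 348, 352 and 354 CPM in control libraries (0.23 ± 0.07). In both genes knockout 1 was the lowest knockout library and still above every control.

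The mRNA export helicases DDX19A and DDX19B are neighbours of closely related sequence, so reads could be split between them. Another annotated gene spans both on the same strand and overlaps 23.8% and 15.7% of their exonic bases. DDX19B (chr16:70289663-70335283, plus strand) had 11.7, 12.9 and 12.8 CPM in knockout libraries and 10.1, 10.1 and 9.64 CPM in control libraries (0.33 ± 0.10). DDX19A (chr16:70346829-70373383, plus strand) had 10.2, 12.8 and 13.3 CPM in knockout and 11.9, 10.8 and 10.9 CPM in control libraries (0.11 ± 0.13). Only DDX19B was apart between groups, and the division of the shift between the 2 genes is uncertain. CNOT1, the scaffold of the CCR4-NOT deadenylase, had 310, 324 and 313 CPM in knockout libraries and 288, 276 and 287 CPM in control libraries (0.15 ± 0.06). Its groups did not overlap although its shift was below the members' median.

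Of the 8 genes of membrane trafficking, the Golgi and the lysosome, 3 were called higher, namely GLG1, CHMP1A and COG4, and the class had a median of 0.28 (0.09 to 0.43). GLG1 (chr16:74447427-74607144, minus strand), a Golgi glycoprotein that binds fibroblast growth factors, had 275, 285 and 287 CPM in knockout libraries and 211, 228 and 215 CPM in control libraries (0.37 ± 0.06). CHMP1A (chr16:89644431-89657845, minus strand), a subunit of the membrane-cutting ESCRT-III machinery, had 168, 201 and 193 CPM in knockout and 135, 140 and 142 CPM in control libraries (0.43 ± 0.08). Neither gene had overlapping groups. MBTPS1 (chr16:84053761-84116906, minus strand), the site-1 protease that activates SREBP and ATF6, had 166, 158 and 165 CPM in knockout libraries and 146, 158 and 155 CPM in control libraries (0.09 ± 0.06). Its knockout libraries were all above the controls, but knockout 2 and control 2 were almost equal.

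In the 7 genes of mitochondria, peroxisomes and metabolism, SPG7 and PHKB were called higher, with a class median of 0.20 (0.17 to 0.70). PHKB (chr16:47461123-47701523, plus strand), a regulatory subunit of phosphorylase kinase, had 91.6, 81.6 and 84.8 CPM in knockout libraries and 68.0, 70.4 and 69.1 CPM in control libraries (0.31 ± 0.07). Here knockout 1 was the highest library. LONP2, the Lon protease of peroxisomes, had 83.3, 76.3 and 76.3 CPM in knockout libraries and 70.1, 67.1 and 69.3 CPM in control libraries (0.19 ± 0.07). It too was apart between groups.

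Among the 5 members of the cilium and cytoskeleton, KIFC3 and GAS8 were called higher and the median was 0.26 (-0.04 to 0.45). KIFC3 (chr16:57758217-57863053, minus strand), a minus-end directed kinesin, had 259, 281 and 299 CPM in knockout libraries and 229, 220 and 217 CPM in control libraries (0.33 ± 0.07). GAS8 (chr16:90019629-90044975, plus strand), a subunit of the dynein regulatory complex of motile cilia, had 11, 13.3 and 11.6 CPM in knockout and 8.0, 9.75 and 8.53 CPM in control libraries (0.45 ± 0.13). It is the member nearest to the end of the arm, and its groups did not overlap. Of its exonic bases, 29.85% overlap exons of the opposite strand. COTL1, an actin-binding protein with the highest count of all members, had 531, 645 and 606 CPM in knockout libraries and 484, 495 and 509 CPM in control libraries (0.26 ± 0.07).

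Of the 5 genes grouped here under the ubiquitin system, KLHL36 and KLHDC4 were called higher (median 0.24, range 0.06 to 0.57). A role of KLHDC4 in that system was not examined. KLHDC4 (chr16:87696485-87765992, minus strand) had 29.2, 33.0 and 30.6 CPM in knockout libraries and 23.5, 23.3 and 23.1 CPM in control libraries (0.41 ± 0.08). The deubiquitinase gene USP10 (chr16:84699978-84779922, plus strand) had 131, 153 and 151 CPM in knockout and 118, 126 and 124 CPM in control libraries (0.24 ± 0.08). Both were apart between groups. CYLD (chr16:50742050-50801935, plus strand), the deubiquitinase that restrains NF-kB signalling, differed from them. It had 58.7, 52.5 and 51.7 CPM in knockout libraries and 47.7, 51.9 and 56.5 CPM in control libraries (0.06 ± 0.09), so the groups were intermixed, and its value was -0.06 without both libraries numbered 1.

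The 5 genes of membrane transport and signalling had a median of 0.24 (0.14 to 0.82), with CMIP and PIEZO1 called higher. Of the 2 genes of chaperoning and ribosome assembly, HEATR3 was called higher and DNAJA2 was not called. HEATR3 (chr16:50065941-50106387, plus strand), which helps carry ribosomal proteins into the nucleus, had 24.9, 32 and 30.1 CPM in knockout libraries and 21.7, 23.3 and 21.7 CPM in control libraries (0.38 ± 0.11). Knockout 1 lay closer to the controls than the other knockouts did.

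A pair of members did not stand higher. DNAJA2 (chr16:46955362-46973788, minus strand), an Hsp40 co-chaperone of Hsp70, had 69.2, 72.6 and 70.1 CPM in knockout libraries and 85.0, 75.1 and 74.6 CPM in control libraries (-0.15 ± 0.07). Every knockout library lay below every control, and control 1 was set apart from the other controls. ARL2BP (chr16:57245098-57253635, plus strand), which binds the small GTPase ARL2, had 2.90, 3.70 and 3.78 CPM in knockout and 3.41, 3.44 and 3.85 CPM in control libraries (-0.04 ± 0.18). Its groups overlapped, it had the lowest count of all members, and 84.5% of its exonic bases overlap exons of the opposite strand, so how its reads were assigned is uncertain. Its log2 fold change became 0.01 without control 3, 0.07 without knockout 1 and 0.04 without both libraries numbered 1.

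DNAJA2 is also the member nearest to the centromere, and the genes beside it were mixed. In order from the centromere, SHCBP1 had a log2 fold change of 0.10, VPS35 of -0.05, ORC6 of 0.26, C16orf87 of -0.32, GPT2 of -0.39 and DNAJA2 of -0.15. Beyond DNAJA2, the members ITFG1, PHKB, LONP2 and SIAH1 stood at 0.14, 0.31, 0.19 and 0.13. The value of SIAH1, a ubiquitin ligase, was -0.01 without control 1 and -0.02 without both libraries numbered 1. GPT2, a mitochondrial alanine transaminase, was among the 3 tested 16q genes called lower. At the distal end, TCF25, DEF8 and GAS8 stood at 0.23, 0.45 and 0.45. DBNDD1 next to GAS8 stood at -0.43 ± 0.31 and was not called, with overlapping groups and a mean of 4.12 CPM. DNAJA2 begins just under the 47 Mb limit, and no member lies between it and the centromere.

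The shift was not limited to the listed genes. The other 224 tested genes of 16q had a median log2 fold change of 0.30, with 186 above 0 (83%), 67 called higher (29.9%) and 3 called lower. The 334 tested genes of the short arm, 16p, had a median of 0.03, with 196 above 0 (58.7%), 12 called higher (3.59%) and 4 called lower. Over all tested genes, 50.6% were above 0, 5.88% were called higher and 6.22% lower. With both arms together, chromosome 16 had the highest median of the chromosomes, 0.15 over 615 genes, followed by chromosome 14 at 0.14 and chromosome 8 at 0.12. The tests of single genes do not test the arm as a whole.

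**Figure D3:**
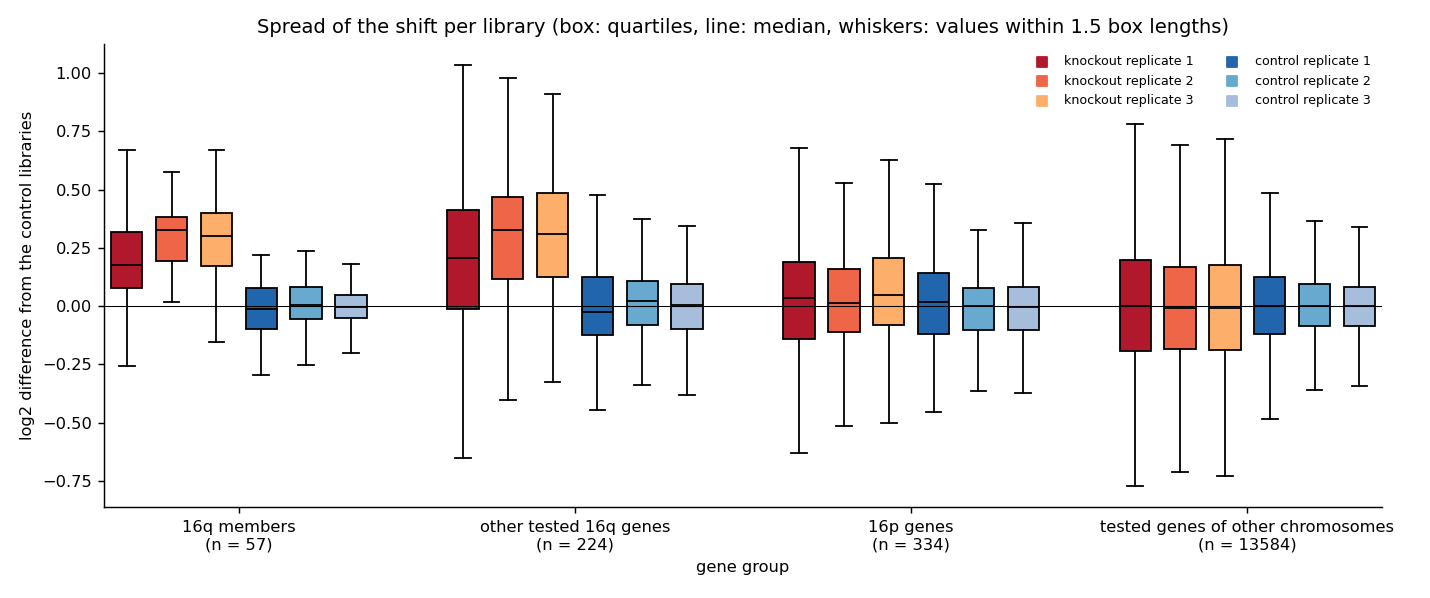
Spread of the log2 difference from the control mean in each library, for the 57 members and the comparison gene groups (box, quartiles; line, median; whiskers, values within 1.5 box lengths). The knockout boxes of the members have medians of 0.17, 0.32 and 0.30, and the control boxes lie near 0.

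Along the arm, every window of 5 Mb with at least 10 tested genes had a median above 0. The 16q medians were 0.13 at 45 to 50 Mb, 0.34 at 50 to 55 Mb and 0.20 at 55 to 60 Mb. Farther out they were 0.29 at 65 to 70 Mb, 0.36 at 70 to 75 Mb, 0.35 at 75 to 80 Mb, 0.29 at 80 to 85 Mb and 0.34 at 85 to 90 Mb. Among these windows, the one nearest to the centromere was the lowest. On 16p the window medians ran from -0.11 to 0.11.

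**Figure D4:**
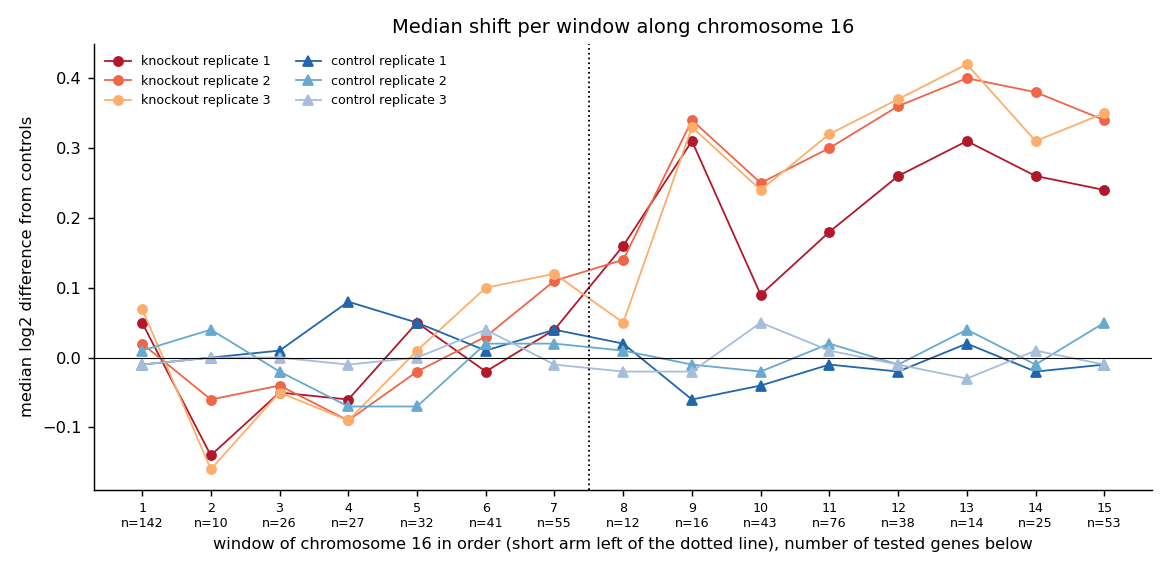
Median log2 difference from the control mean in each library for the 5 Mb windows of chromosome 16 with at least 10 tested genes, in order, with the number of tested genes under each window and the short arm at left of the dotted line. The knockout lines separate from the control lines on the long arm, where window medians of the fitted fold change lie between 0.13 and 0.36.

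Some 16q genes outside the list escaped the shift, taken here as a log2 fold change of 0 or less. They were 18 of the 165 with a mean of at least 5 CPM (10.9%) and 20 of the 59 below that level (33.9%), where counting error is larger. Over all tested genes, 7015 of 14199 were at 0 or less. Of the 18, 3 were called lower, and some lay at 0 within error, such as LPCAT2 (-0.00 ± 0.09) and PLEKHG4 (-0.01 ± 0.13). The lowest was CDH11, a mesenchymal cadherin, with 47.6, 10.6 and 16.4 CPM in knockout libraries and 78.6, 81.4 and 81.6 CPM in control libraries (-1.69). All knockout libraries were below the controls, and they differed widely among themselves. ESRP2, an epithelial splicing regulator, and GPT2 were the others called lower, at -0.55 and -0.39. PLLP, C16orf87, RRAD, RPS27AP16 and GNAO1 were not called, at -0.50 ± 0.18, -0.32 ± 0.14, -0.31 ± 0.18, -0.22 ± 0.13 and -0.14 ± 0.11. RPS27AP16 is annotated as a processed pseudogene, and in GNAO1 knockout 1 lay above every control.

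At the other extreme, among genes with a mean of at least 5 CPM, PLCG2, IRX5, CDYL2, OSGIN1 and HERPUD1 stood at 1.23, 1.05, 0.93, 0.72 and 0.68. The metallothionein MT1F was at 1.43, with 2.06, 15.5 and 11.9 CPM in knockout libraries and 2.5, 4.84 and 3.57 CPM in control libraries. Knockout 1 lay under every control, so this value rests on the other knockout libraries. Below a mean of 5 CPM, 4 genes were called higher. They were HSD17B2 at 2.94 ± 0.36, DDX19A-DT at 1.89 ± 0.49, ATP6V0D1-DT at 1.17 ± 0.31 and CHST4 at 1.15 ± 0.22. Their control means were 0.365, 0.230, 0.681 and 3.06 CPM, in the same order, so most of these fold changes start from a level near the floor. PSMB10, an immunoproteasome subunit, was at 0.40, and CDH1, which encodes E-cadherin, at -0.93 ± 0.65, too wide an error to place it with or against the arm.

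Some neighbours on the arm start back to back. Among members, 5 pairs start on opposite strands under 1000 bases apart in the annotation, and their median difference in log2 fold change was 0.06. Members next to each other by position differed by a median of 0.17 over 56 such steps. Over all 30 back-to-back pairs of tested 16q genes the median difference was 0.20. Those 30 include the 5 member pairs and pairs with a transcript of low level, such as DDX19A-DT with DDX19A (1.78). Among the 5 member pairs were NUDT21 with OGFOD1 (0.13 and 0.13), CIAPIN1 with COQ9 (0.22 and 0.18) and AARS1 with DDX19B (0.13 and 0.33). The others were COG4 with SF3B3 (0.29 and 0.23) and ANKRD11 with SPG7 (0.50 and 0.70). With 5 pairs this is a description.

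NUDT21 encodes a subunit of cleavage factor I, which sets the site of polyadenylation, and had 42.3, 50.6 and 47.6 CPM in knockout libraries and 42.4, 41.9 and 43.7 CPM in control libraries. Its neighbour OGFOD1, a ribosomal prolyl hydroxylase, had 47.4, 55.6 and 54.1 CPM in knockout and 46.5, 47.1 and 50.2 CPM in control libraries. In both, knockout 1 stood at the level of the controls and the other knockouts above it. CIAPIN1, an iron-sulfur assembly factor, had 59.8, 70.6 and 68.4 CPM in knockout libraries and 54.3, 59.1 and 57.4 CPM in control libraries. COQ9, needed for coenzyme Q synthesis, had 32.5, 36.9 and 32.6 CPM in knockout and 27.6, 32.2 and 30.0 CPM in control libraries. Both members of this pair were apart between groups, by little at the nearest libraries.

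AARS1, the alanyl-tRNA synthetase, had 185, 204 and 217 CPM in knockout libraries and 165, 198 and 191 CPM in control libraries, with overlap. COG4 (chr16:70480568-70523565, minus strand), a subunit of the COG tether of the Golgi, had 53.4, 57.3 and 60.7 CPM in knockout libraries and 43.6, 49.1 and 47.5 CPM in control libraries, with none.

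The bases between such starts are shown for 3 pairs because they are the sequence that both genes share upstream. They come from RefSeq on GRCh38.p14, are given 5′ to 3′ on the plus strand, and have GC boxes (GGGCGG or CCGCCC) in capitals. By RefSeq starts, ITFG1 and PHKB, at 0.14 and 0.31, also form such a pair. The regions are chr16:57447386-57447478 for CIAPIN1 and COQ9, chr16:56451333-56451523 for NUDT21 and OGFOD1, and chr16:47461064-47461298 for ITFG1 and PHKB.
CIAPIN1-COQ9: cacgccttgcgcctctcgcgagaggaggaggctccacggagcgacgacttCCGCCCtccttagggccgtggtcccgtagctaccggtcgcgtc
NUDT21-OGFOD1: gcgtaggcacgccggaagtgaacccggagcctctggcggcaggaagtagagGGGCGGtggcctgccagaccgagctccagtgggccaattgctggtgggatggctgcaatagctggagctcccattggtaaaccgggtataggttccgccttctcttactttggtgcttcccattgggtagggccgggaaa
ITFG1-PHKB: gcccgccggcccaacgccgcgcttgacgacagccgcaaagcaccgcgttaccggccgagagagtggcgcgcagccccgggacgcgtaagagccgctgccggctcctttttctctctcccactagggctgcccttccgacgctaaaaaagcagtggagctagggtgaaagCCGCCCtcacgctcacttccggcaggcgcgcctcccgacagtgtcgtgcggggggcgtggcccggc

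Each of the 3 holds 1 GC box, and their GC content was 69.9%, 61.3% and 69.8%. For the highest and the lowest member, the 250 bases upstream of the RefSeq start are shown on the strand of the gene, CMIP at chr16:81444558-81444807 (plus strand) and DNAJA2 at chr16:46973675-46973924 (minus strand), with GC boxes again in capitals.
CMIP: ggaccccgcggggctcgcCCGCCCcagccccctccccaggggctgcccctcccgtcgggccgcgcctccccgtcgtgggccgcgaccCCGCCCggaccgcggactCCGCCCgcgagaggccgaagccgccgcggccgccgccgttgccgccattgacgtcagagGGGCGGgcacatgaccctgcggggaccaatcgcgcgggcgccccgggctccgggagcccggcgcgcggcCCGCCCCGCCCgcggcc
DNAJA2: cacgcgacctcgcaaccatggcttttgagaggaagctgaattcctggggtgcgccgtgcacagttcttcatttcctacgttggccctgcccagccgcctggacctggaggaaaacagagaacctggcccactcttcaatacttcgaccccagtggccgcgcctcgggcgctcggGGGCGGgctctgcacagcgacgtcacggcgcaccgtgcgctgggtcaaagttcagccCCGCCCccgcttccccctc

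The CMIP stretch holds 6 GC boxes at 84.4% GC, and that of DNAJA2 holds 2 at 65.2% GC. Over the 49 members with a promoter entry, the 250 bases upstream were searched on both strands. The GC box was in 79.6% of members and 74.2% of the 11034 tested genes with an entry. CCAAT was in 30.6% and 40.9%, the ETS core CCGGAAG in 30.6% and 18.6%, TATAAA in 4.08% and 7.92%, and the palindromic NRF1 motif in 0 of 49 members and 2.25% of tested genes. Median GC content was 68.4% for members and 64.6% for tested genes. A match is a description of these letters and not a binding site.

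Many members work as subunits of complexes whose other subunits are encoded elsewhere, which the rule did not use. Of 113 listed partner genes outside 16q, 110 were tested, and their median log2 fold change was -0.05, with 44 above 0. By edgeR's quasi-likelihood test with Benjamini-Hochberg adjustment, 1 of the 110 was called higher and 10 lower, or 10% together, beside 12.1% of all tested genes. In each of 20 complexes the 16q member stood above the median of its partners, which the choice of members favours. The number of partners called was 4 without control 1, 2 without control 2, 2 without control 3, 24 without knockout 1, 6 without knockout 2 and 1 without knockout 3. It was 31 without both libraries numbered 1. Over all tested genes, these settings called 1055, 649, 550, 3430, 1457, 524 and 4312, in the same order.

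The partner called higher was CHMP1B, a second ESCRT-III subunit, with 44.4, 44.6 and 46.4 CPM in knockout libraries and 37.0, 35.6 and 38.5 CPM in control libraries. Its log2 fold change was 0.29 ± 0.07 (edgeR adjusted p = 0.0337), beside 0.43 for CHMP1A. Among the partners called, the largest fall was in CSNK2A1, a catalytic subunit of casein kinase 2, with 147, 139 and 133 CPM in knockout libraries and 199, 200.4 and 206 CPM in control libraries (-0.53 ± 0.06, edgeR adjusted p = 0.00115). Its paralogue on 16q, CSNK2A2, went the other way, with 45.9, 49.4 and 49.6 CPM in knockout and 39.1, 43.6 and 40.2 CPM in control libraries (0.24 ± 0.08). SMARCA4, the ATPase that BRD7-containing PBAF uses, had 246, 223 and 224 CPM in knockout libraries and 318, 300.0 and 282 CPM in control libraries (-0.38 ± 0.07, edgeR adjusted p = 0.00906). Both falls left the groups apart.

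The other partners called lower were COG2 at -0.38, LIN9 at -0.38, AP1S2 at -0.31, AP1M1 at -0.27, EPRS1 at -0.27, POLR2L at -0.24, IARS1 at -0.23 and POLR2E at -0.22. They sit in the Golgi tether, the DREAM complex, the AP-1 adaptor, the multi-tRNA synthetase complex and RNA polymerase II. Tested genes within 2.5 Mb of most partners called lower were also low. Their median was -0.33 around CSNK2A1 on chromosome 20, -0.30 around EPRS1 on chromosome 1 and -0.24 around AP1M1 on chromosome 19. The median was -0.22 around COG2, -0.21 around POLR2L, -0.20 around AP1S2, -0.20 around SMARCA4 and -0.17 around LIN9. Around POLR2E and IARS1 it was 0.02 and -0.01, and around CHMP1B on chromosome 18 it was 0.02. The part of these neighbourhoods in the partners' values was not tested.

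**Figure D5:**
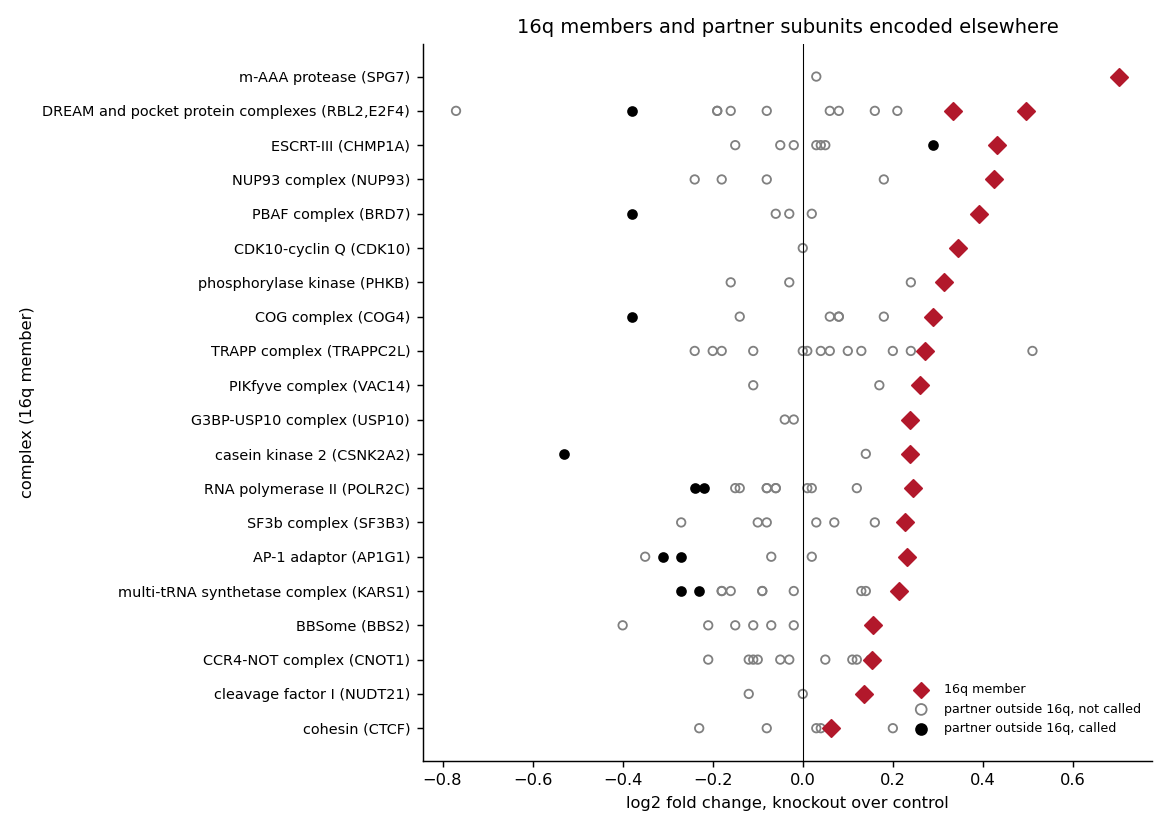
Log2 fold change, knockout over control, of 16q members (diamonds) and of their partner subunits encoded outside 16q (circles, filled where called by edgeR), with 1 row per complex. The diamonds lie right of most circles, and the filled circle farthest left is CSNK2A1 at -0.53.

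Partners encoded on 16q itself were COG8 and IST1. COG8, a Golgi tether subunit, stood at 0.29 and IST1, an ESCRT-III-like protein, at 0.34. IST1 had 103, 102 and 103 CPM in knockout libraries and 80.4, 83.3 and 80.6 CPM in control libraries, with no overlap.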

How the data were processed

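Per the submitters' processing notes, FastQC and the aligner STAR (version 2) were used with GRCh38. The sources used here do not give how reads were counted or whether by strand. A deposited table of whole-number read counts per gene symbol gave all main values. The log2 CPM values that the authors deposited, made with an unstated filter, served 1 alternative only.

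Genes were kept by filterByExpr, libraries were scaled by TMM, and edgeR 4.0.16 in R 4.3.3 fitted the genotype with no covariate by quasi-likelihood. P-values were two-sided, Benjamini-Hochberg adjusted over 14199 genes, and called at 0.05. They set the difference between the groups against the spread between passages within a group. A standard error is the log2 fold change divided by the square root of F. Shifts per library used log2(CPM + 0.5). The scripts were tested on simulated data.

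Positions come from GENCODE 29, matched by symbol for 99.2% of genes, and upstream bases from RefSeq. No pair of replicates agreed within sampling noise (chi-square per degree of freedom of 2.45 or more), so each of the 6 libraries was counted as a separate sample. The members, lists and tests were chosen with earlier results of these data known. Genes named with values were the 6 largest and 6 smallest shifts, head-to-head and near-identical pairs, up to 3 per role with the smallest p, the extremes of other 16q genes with a mean of at least 5 CPM, the genes at both ends of the region, called partners, and CDH1, PSMB10 and HERPUD1. E2F4, NFAT5, CNOT1, COG8 and IST1 were added after their values were seen. HSD17B2, DDX19A-DT, ATP6V0D1-DT and CHST4 were named outside these rules, because they were called below a mean of 5 CPM. They are not among the 75 genes for which alternatives were run. Alternatives were DESeq2 1.42.0, limma-voom and limma 3.58.1 on the deposited log2 CPM, other scalings and filters, a replicate block, leaving out each library and, chosen after seeing the data, leaving out both libraries numbered 1.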

Additional observations from a re-analysis of the deposited data

How the results depend on the processing

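The members' median log2 fold change of 0.26 ran from 0.23 to 0.31 when single libraries were left out and was 0.26 to 0.28 under the other alternatives. Leaving out single libraries moved the genes called from 524 to 3430 (1718 with all libraries), the members called higher from 6 to 35 (18) and the partners called from 1 to 24 (11). The lowest count came in each case without knockout 3 and the highest without knockout 1. Over the other tools, scalings and filters, members called higher ran from 16 to 26. Of the 75 genes for which alternatives were run, 3 changed direction, and the cause was not tested. ARL2BP, at -0.04 with all libraries, ran from -0.11 without knockout 3 to 0.07 without knockout 1, with 0.01 without control 3. SIAH1, at 0.13, ran down to -0.01 without control 1. Without both libraries numbered 1, ARL2BP was at 0.04, SIAH1 at -0.02 and CYLD at -0.06, and 4312 genes, 40 members and 31 partners were called, with a members' median of 0.28.

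With the replicate number as a block, 3099 genes, 33 members and 19 partners were called. The samples share only a number: deviations of same-numbered libraries correlated at 0.316, 0.139 and 0.0855, and not every library correlated best with its own number. Depth limits ARL2BP most, with as few as 93 counts in a library, against a median of 1520 over the members.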
